A study of Homo sapiens with 6 samples.

Results

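The 44 genes described here encode the subunits of the human proteasome, its activators and inhibitor, and its dedicated assembly factors. They were taken by gene symbol from the 62492 genes listed for each library, and the rule that defines them uses no measured value. Both groups were HCT116 cells, an established human colorectal cancer line labelled wild type, and the cells received either a control siRNA (siControl) or an siRNA against NONO (siNONO), a nuclear RNA- and DNA-binding protein of paraspeckles. Each siRNA was applied at 20 nM, and each group had 3 biological replicates, labelled Sets 1 to 3. The siNONO group rests on 1 siRNA design, so the loss of NONO and any other effect of that design cannot be told apart.

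PolyA RNA was sequenced, and the library totals ran from 21765393 to 32659002 estimated counts. NONO itself lay at 496, 495 and 516 CPM (counts scaled to library size) in siControl Sets 1 to 3 and at 89.5, 95.5 and 100.4 CPM in the siNONO libraries, a log2 fold change of -2.40 ± 0.03 (SE). All 6 epithelial markers checked were expressed, at 33.1 to 1281 TPM (levels scaled for transcript length and library size), and the 4 blood markers and the endothelial gene CDH5 stayed under 0.5 TPM in every library. Of 3 fibroblast markers, COL1A1 reached up to 19.02 TPM, and COL3A1 and DCN stayed under 0.5 TPM.

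The 26S proteasome degrades proteins tagged with ubiquitin. Its 20S core is a barrel of alpha and beta rings, and PSMB5, PSMB6 and PSMB7 are the beta subunits that cut proteins. The 19S regulatory particle caps the barrel, with a ring of ATPases that unfold the substrate, a lid that removes the ubiquitin chain, and receptors that hold it. Interferon induces the replacement beta subunits PSMB8, PSMB9 and PSMB10, which form the immunoproteasome, and the PA28 activator subunits PSME1 and PSME2. Both changes are known for their part in making peptides for antigen presentation.

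Transcripts of the standard subunits were lower after NONO knockdown by small amounts, and those of the interferon-linked members were higher. All 44 genes passed the filter on low counts. Of these, 25 fell, 7 rose and 12 did not pass the test, which was the quasi-likelihood test of edgeR, blocked by Set, at a Benjamini-Hochberg adjusted p of at most 0.05 over 17000 genes. Over all genes tested, 23.4% fell, 23.2% rose and 46.6% passed in either direction, with a median log2 fold change of 0.00. The 3 interferon-linked genes PSMB10, PSME1 and PSME2 all rose, with a median log2 fold change of 0.62. Of the other 41 genes, 25 fell, 4 rose and 12 did not pass, with a median of -0.15 and medians of -0.11, -0.19 and -0.13 in Sets 1 to 3.

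The size of the change separated few members from the rest. A called rise of at least 0.5 on the log2 scale was found for PSME1, PSMD3, PSME2 and PSMB10, beside 5.85% of all genes tested. A called fall of at least 0.5 was found for PSMD11 and PSMC2, beside 6.29% of all genes. The 44 genes kept their direction in all 3 Sets in 40 cases. The share of all genes tested that did so was not computed, so this count does not set the members apart. CPM ranges of both groups did not overlap for 31 of the 44, beside 47.8% of all genes tested. Some calls on small changes did not pass with fewer libraries, and leaving out a library also removes its Set from the contrast. With any 1 library of Set 1 or Set 2 left out, PSMB7 stood at -0.10 to -0.09 (adjusted p = 0.106 to 0.149, edgeR), PSMD14 at -0.08 to -0.07 (adjusted p = 0.208 to 0.293) and PSMF1 at 0.09 to 0.12 (adjusted p = 0.0686 to 0.195). Without either library of Set 2, PSMA2 stood at -0.12 to -0.11 and PSMA3 at -0.12 to -0.11, with adjusted p from 0.0621 to 0.0962 in edgeR. Without siControl Set 2, PSMA4 was at -0.11 (adjusted p = 0.0732, edgeR) and PSMC3 at -0.12 (adjusted p = 0.0664, edgeR).

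**Figure D1:**
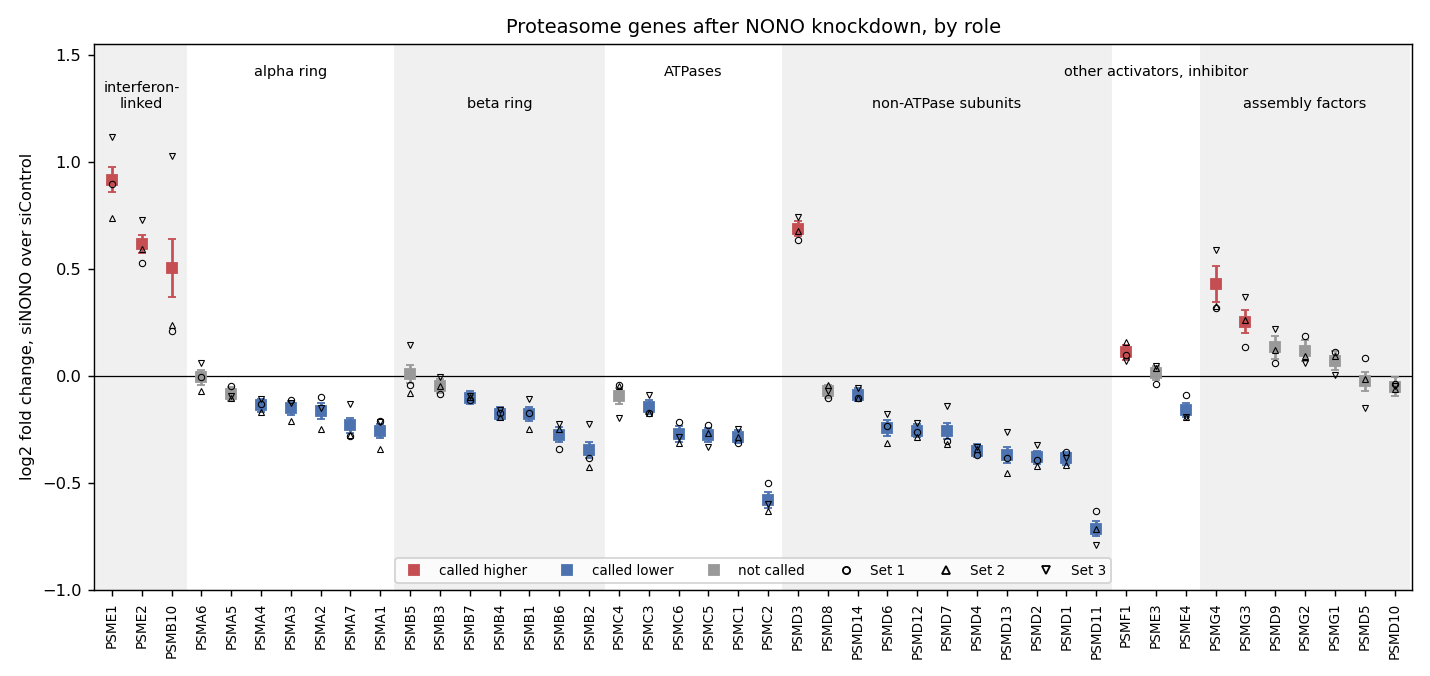
Log2 fold change of siNONO over siControl for the 44 proteasome genes, grouped by role; squares with bars are the fitted value ± SE and open symbols are the 3 Sets. The interferon-linked genes lie above 0 and most core and regulatory subunits lie below it, with PSMD3 at 0.69 as the exception among the regulatory subunits.

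PSME1 showed the highest fold change among the members. It lies at chr14:24605372-24608176 on the plus strand of GRCh37 and encodes the alpha subunit of PA28. Its values were 59.0, 59.2 and 49.6 CPM in siControl Sets 1 to 3 and 110, 99.1 and 108 CPM in siNONO. The ranges did not overlap, and the log2 fold change was 0.92 ± 0.06 (SE; adjusted p = 6.15e-08, edgeR).

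PSME2, the beta subunit of PA28, lies a few kilobases away at chr14:24612571-24616779 on the minus strand. It was measured at 76.3, 72.1 and 75.1 CPM in siControl and at 110, 109 and 125 CPM in siNONO. The groups again did not overlap, and the log2 fold change was 0.62 ± 0.04 (SE; adjusted p = 1.33e-07, edgeR). In level, PSME1 moved from rank 32 to rank 13 among the 44 genes by mean TPM, and PSME2 from rank 22 to rank 8.

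PSMB10, the immunoproteasome counterpart of PSMB7, lies at chr16:67968409-67970767 on the minus strand and was the least certain of the 3. It was measured at 9.20, 9.39 and 7.88 CPM in siControl and at 10.7, 11.1 and 16.6 CPM in siNONO. The siNONO library of Set 3 stood well above the other two, and the log2 fold change was 0.21, 0.24 and 1.02 in Sets 1 to 3. The fitted value was 0.50 ± 0.14 (SE; adjusted p = 0.0086, edgeR). With both libraries of Set 3 left out it was 0.24 (adjusted p = 0.0539, edgeR), which no longer passed, so the call rests on Set 3.

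Some genes around the PA28 pair were higher as well. Of 6 neighbours listed for this comparison, with earlier results of these data known, FITM1 was too low to test. EMC9, between PSME1 and PSME2, did not pass (0.05 ± 0.08). The other 4 rose, beside 23.2% of all genes tested. DCAF11 rose by 0.26 in log2 fold change, RNF31, a subunit of the linear ubiquitin ligase, by 0.59, REC8, a meiotic cohesin subunit, by 1.46 and IRF9, a subunit of the interferon-induced transcription factor ISGF3, by 2.05. On the TPM scale DCAF11 had the same mean of 44.1 in both groups, and REC8 stood at 0.72 by limma on log2(TPM + 1). PSME2 and RNF31 overlap by 888 bases on opposite strands, and PSME1 and EMC9 by 9 bases. Since the strand setting of the counting is not given in the sources used here, how far RNF31 reads enter PSME2 was not tested. Around PSMB10, SLC12A4 rose by 0.20 and DUS2 by 0.19, LCAT fell by 0.58, CTRL was at 0.14 ± 0.23 and DPEP3 was listed at 0 in every library. On the log2(TPM + 1) scale SLC12A4 stood at -0.021. With both libraries of Set 3 left out, LCAT (-0.44, adjusted p = 0.0679) and DUS2 (0.11, adjusted p = 0.227) no longer passed in edgeR.

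The promoters of the 3 interferon-linked genes each held the core letters of an interferon-stimulated response element, the DNA element bound by ISGF3 and the interferon regulatory factors. The letters searched were GAAA, any 2 bases and GAAA again, on both strands from 250 bases before to 50 after the transcript start in the RefSeq promoter table on GRCh38.p14. The table held 38 of the 44 members. The letters occurred in 6 of them, or 15.8%, and 3 of these 6 are the interferon-linked genes. The share was 3.65% of all 27305 promoters and 2.73% of the promoters of tested genes. The windows of the 3 interferon-linked genes, of PSMG4, which also rose, and of PSMB4, which fell, are shown from 120 bases before to 30 after the start, in the sense of the gene, with the matching letters in capitals.
PSMB10, chr16:67936821-67936970, minus strand: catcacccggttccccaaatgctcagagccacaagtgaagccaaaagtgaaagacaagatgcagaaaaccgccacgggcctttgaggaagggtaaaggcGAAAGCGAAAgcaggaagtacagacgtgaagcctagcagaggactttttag
PSME1, chr14:24136074-24136223, plus strand: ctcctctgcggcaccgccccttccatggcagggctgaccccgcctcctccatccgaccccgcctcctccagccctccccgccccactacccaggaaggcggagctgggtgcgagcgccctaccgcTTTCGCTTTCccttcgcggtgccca
PSME2, chr14:24146581-24146730, minus strand: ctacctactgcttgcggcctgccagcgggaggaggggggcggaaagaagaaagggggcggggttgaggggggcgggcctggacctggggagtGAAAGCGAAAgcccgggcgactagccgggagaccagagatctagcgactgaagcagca
PSMG4, chr6:3258827-3258976, plus strand: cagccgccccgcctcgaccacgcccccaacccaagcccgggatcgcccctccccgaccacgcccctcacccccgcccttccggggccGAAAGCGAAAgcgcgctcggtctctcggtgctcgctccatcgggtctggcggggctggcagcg
PSMB4, chr1:151399453-151399602, plus strand: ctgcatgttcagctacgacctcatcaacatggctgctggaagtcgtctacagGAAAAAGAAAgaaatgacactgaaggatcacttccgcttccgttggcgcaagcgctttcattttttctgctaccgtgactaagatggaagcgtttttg

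In PSMB10, PSME2 and PSMG4 the match began 21, 28 and 33 bases before the start. The letters were GAAAGCGAAA in all of these, and PSME1 held the same letters on the opposite strand, beginning at base 6 of the transcript. PSMB4 and PSMA4 held other letters, GAAAAAGAAA and GAAAATGAAA, and both genes fell. Of the 6 members with a match, 4 rose and 2 fell, and of the 32 without a match 2 rose. The 4 that rose are PSMG4 and the 3 interferon-linked genes. Those 3 were named beforehand as interferon-linked, so these counts are no independent support for a link between the letters and the rise. Across 11669 tested genes with a promoter in the table, 39.9% of the 318 with the letters rose, against 26.01% of all of them. A match is a description of these windows and does not show binding.

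Among 2 further motifs, the gamma-activated site letters TTCNNNGAA, bound by STAT dimers, were found in the promoters of 4 members, or 10.5%, against 7.88% of all promoters, and these were PSMA2, PSMC4, PSMD3 and PSME3. The antioxidant response element letters TGACNNNGC, read by NFE2L1 and related factors, were found in 12 members, or 31.6%, against 13.6% of all promoters. These were PSME1, PSME2 and PSMD3, which rose, PSMD1, PSMD12 and PSME4, which fell, and PSMB3, PSMC4, PSMD5, PSMD9, PSMG1 and PSMG2, which did not pass. Of the promoters of tested genes, 6.08% held the gamma-activated site letters and 15.0% the antioxidant response element letters. No match of either motif overlapped one of the interferon element in the members.

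The interferon-linked genes were then compared with their constitutive counterparts by level, as a ratio of TPM within each library. PSMB10 stood at 11.7, 12.0 and 10.2% of PSMB7 in siControl and at 14.9, 14.9 and 20.9% in siNONO. PSMB7, the trypsin-like subunit of the core, was itself lower, at 141, 144 and 148 CPM in siControl and 130, 135 and 139 CPM in siNONO. Its log2 fold change was -0.10 ± 0.03 (SE; adjusted p = 0.0161, edgeR).

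PSME1 stood at 92.8, 94.1 and 80.6% of PSME3 in siControl and at 173, 136 and 161% in siNONO. PSME2 stood at 135, 139 and 142% of PSME3 and then at 201, 175 and 220%. PSME3, which forms the nuclear PA28 gamma activator and is not known as an interferon-induced gene, did not pass the test. It lay at 185, 186 and 184 CPM in siControl and at 180, 191 and 189 CPM in siNONO, a log2 fold change of 0.01 ± 0.03 (SE).

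The other immunoproteasome subunits were not members but complete the comparison. PSMB9, the counterpart of PSMB6, rose from 2.60 ± 0.55% to 9.41 ± 1.37% of PSMB6 TPM (SD, n = 3), and its own log2 fold change was 1.60 ± 0.10 (SE). Its level remained low, at 22.3 ± 4.01 TPM in siNONO (SD, n = 3). PSMB8, the counterpart of PSMB5, was at 0.27 TPM in siControl and 0.44 TPM in siNONO on average, and it was too low to test.

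The log2 ratio rose by 0.57 for PSMB10, 1.87 for PSMB9, 0.81 for PSME1 and 0.51 for PSME2, in each case in 3 of 3 Sets, and by 0.81 for PSMB8 in 2 of 3 Sets. In an exact two-sided permutation test the p-value was 0.1 for the first 4 pairs and 0.4 for PSMB8, and 0.125 and 0.4 after Benjamini-Hochberg adjustment over 5 pairs. Since 3 libraries against 3 cannot give a p below 0.1, this test could not reach 0.05 for any pair.

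**Figure D2:**
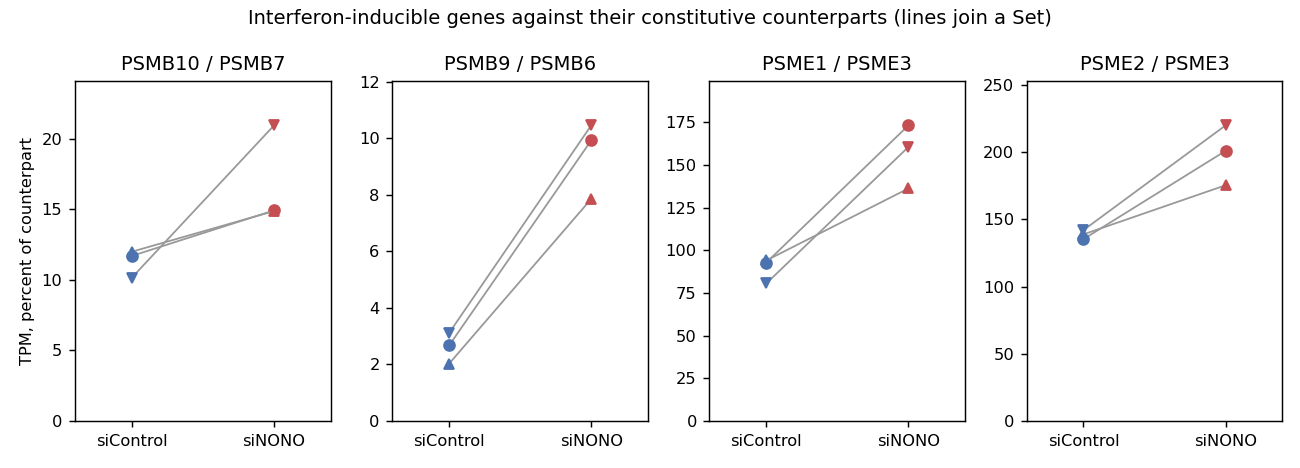
TPM of each interferon-inducible gene as a percent of its constitutive counterpart in every library, with lines joining both libraries of a Set; each panel has its own axis from 0. All 3 Sets go up in all 4 panels, and Set 3 lies apart in the PSMB10 panel, at 20.9%.

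In the 20S core, all called members fell. Of the 7 alpha subunits, which form the gate and outer rings, 5 fell and 2 did not pass, with a median log2 fold change of -0.15. PSMA1 was the lowest, at 204, 220 and 191 CPM in siControl and 176, 173 and 165 CPM in siNONO. Its log2 fold change was -0.26 ± 0.03 (SE; adjusted p = 5.48e-05, edgeR). PSMA4, the most abundant member by TPM, changed least among the called alpha subunits. It went from 221, 232 and 219 CPM to 202, 206 and 202 CPM, a log2 fold change of -0.14 ± 0.03 (SE). Neither gene's groups overlapped. The uncalled genes were PSMA5 (-0.08 ± 0.03) and PSMA6 (-0.01 ± 0.04), and the remaining called genes PSMA2, PSMA3 and PSMA7 lay from -0.23 to -0.15.

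Of the 7 constitutive beta subunits, 5 fell and 2 did not pass, with a median of -0.18. PSMB2, a structural subunit of the ring, was the lowest. It lay at 250, 264 and 243 CPM in siControl and at 191, 196 and 208 CPM in siNONO, with a log2 fold change of -0.35 ± 0.04 (SE; adjusted p = 1.03e-05, edgeR). Among the cutting subunits, PSMB6, the caspase-like one, fell by 0.28 on the log2 scale and PSMB7 by 0.10, while PSMB5, the chymotrypsin-like one, was at 0.01 ± 0.04 and did not pass. PSMB5 lay at 141, 144 and 141 CPM in siControl and at 137, 137 and 156 CPM in siNONO, so the groups overlapped and only Set 3 was higher. PSMB3 did not pass either (-0.05 ± 0.03), and PSMB1 and PSMB4 both fell by 0.18.

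The 19S particle fell further than the core. Of its 17 members, 14 fell, 1 rose and 2 did not pass, with a median of -0.27 against -0.16 for the 14 core genes. The difference between these medians was not tested. Among the 6 ATPases of the base, 5 fell and PSMC4 did not pass (-0.09 ± 0.04). PSMC2 was the lowest, at 116, 131 and 124 CPM in siControl and 81.9, 84.1 and 81.9 CPM in siNONO. The gap between the groups was several times the spread within them, and the log2 fold change was -0.58 ± 0.04 (SE; adjusted p = 7.96e-08, edgeR). PMPCB overlaps PSMC2 by 3249 bases on the same strand and had mean TPM values of 56.7 in siControl and 57.4 in siNONO. PSMC3 showed the smallest called fall, from 123, 132 and 133 CPM to 109, 117 and 125 CPM. The groups of PSMC3 overlapped, and its log2 fold change was -0.15 ± 0.03 (SE). PSMC1, PSMC5 and PSMC6 lay between -0.28 and -0.27.

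The 3 non-ATPase subunits of the base all fell. PSMD2, a docking platform for ubiquitin-like proteins and the member with the highest CPM, went from 522, 531 and 531 CPM to 397, 396 and 424 CPM. Its log2 fold change was -0.38 ± 0.03 (SE). The scaffold subunit PSMD1 fell by 0.39 and the ubiquitin receptor PSMD4 by 0.35. As summed TPM, these 3 genes reached 73.2% of their siControl level in siNONO.

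The lid held both extremes of the 26S particle. PSMD11, a lid subunit that bridges to the base, was the lowest of all members. It lay at 196, 214 and 217 CPM in siControl and at 126, 130 and 125 CPM in siNONO. The groups were far apart, with a log2 fold change of -0.71 ± 0.04 (SE; adjusted p = 1.09e-08, edgeR), and the gene moved from rank 24 to rank 35 by TPM. It lies at chr17:30771397-30810337 on the plus strand of GRCh37.

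PSMD3, another structural subunit of the same lid, went the opposite way. It was measured at 107, 114 and 117 CPM in siControl and at 167, 183 and 196 CPM in siNONO. The log2 fold change was 0.64, 0.68 and 0.74 in Sets 1 to 3, and 0.69 ± 0.03 in the fit (SE; adjusted p = 8.37e-09, edgeR). PSMD3 was the only one of the 31 core and regulatory subunits to rise, and it moved from rank 36 to rank 24 by TPM. It lies at chr17:38137060-38154212 on the plus strand of GRCh37. In each Set its change was the highest among the 41 members that are not interferon-linked. It exceeded that of PSME2, at 0.53, 0.59 and 0.73, in every Set. In Sets 1 and 2 it also exceeded that of PSMB10, as did PSMG4, and PSMG3 did so in Set 2.

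Of the other 6 lid subunits, 5 fell and PSMD8 did not pass (-0.07 ± 0.03). PSMD13 fell by 0.37, PSMD12 and PSMD7 by 0.26 and PSMD6 by 0.25. PSMD14, the enzyme that cuts the ubiquitin chain off the substrate, showed the smallest called fall, at 0.09 ± 0.03.

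**Figure D3:**
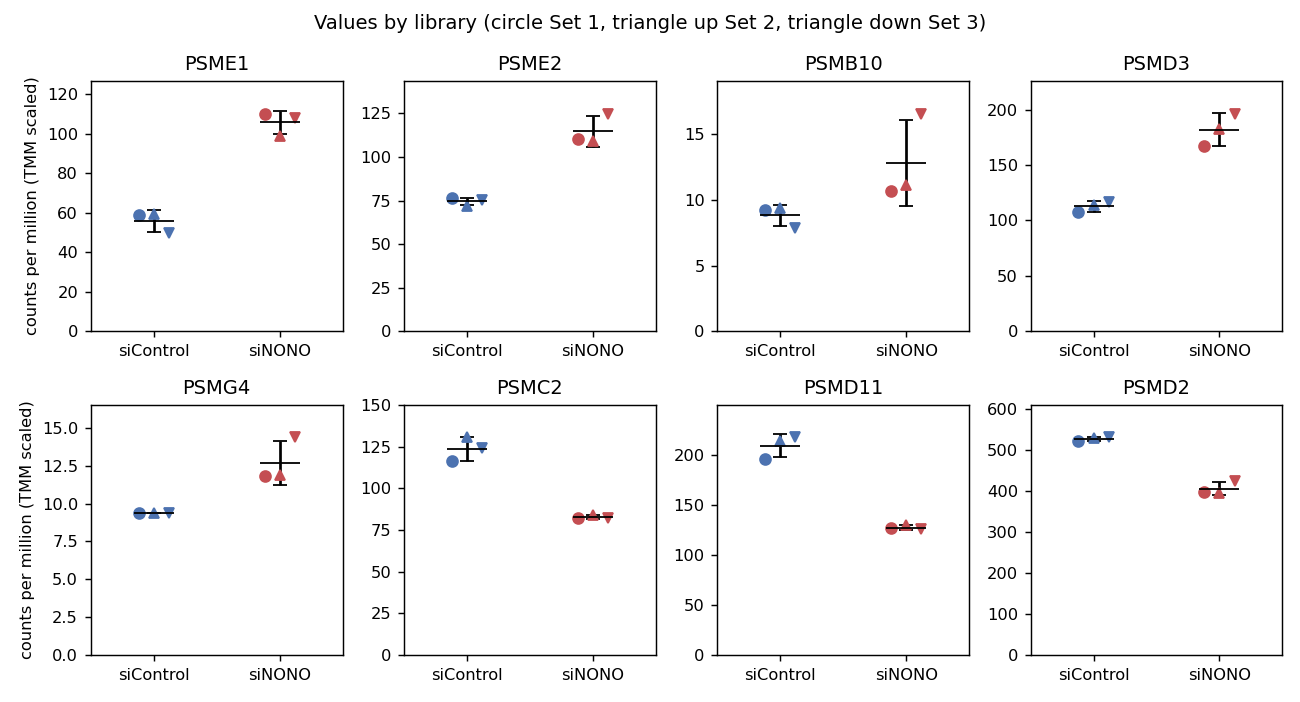
CPM in each of the 6 libraries for 8 members, with the mean and SD of each group as a black bar and the Set as the symbol; axes start at 0 and differ between panels. PSME1, PSME2 and PSMD3 are separated upward and PSMC2, PSMD11 and PSMD2 downward, and in PSMB10 the siNONO library of Set 3, at 16.6 CPM, stands above the rest.

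The remaining regulators outside the 26S particle showed no common direction. PSME4, the PA200 activator, fell from 172, 177 and 169 CPM to 162, 155 and 148 CPM. Its log2 fold change was -0.16 ± 0.03 (SE; adjusted p = 0.00168, edgeR). PSMF1, which encodes the PI31 inhibitor, rose from 90.5, 93.8 and 96.9 CPM to 97.0, 105 and 102 CPM. The log2 fold change of PSMF1 was 0.11 ± 0.04 (SE; adjusted p = 0.0209, edgeR), the smallest called rise among the members.

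Of the 7 assembly factors, 0 fell, 2 (28.6%) rose and 5 did not pass. Among all genes tested, 23.4% fell and 23.2% rose, so the share that rose was near that of all genes. PSMG3 and PSMG4, the chaperone pair PAC3 and PAC4 that acts on the alpha ring, both rose. PSMG3 went from 32.8, 30.8 and 30.8 CPM to 36.0, 37.0 and 39.9 CPM, a log2 fold change of 0.25 ± 0.06 (SE; adjusted p = 0.00228, edgeR). PSMG4 went from 9.38, 9.39 and 9.39 CPM to 11.8, 11.9 and 14.4 CPM, a log2 fold change of 0.43 ± 0.08 (SE; adjusted p = 0.00107, edgeR). Both pairs of groups were separate. The partner pair PSMG1 (0.07 ± 0.04) and PSMG2 (0.12 ± 0.05) did not pass, nor did the base chaperones PSMD5 (-0.03 ± 0.04), PSMD9 (0.13 ± 0.05) and PSMD10 (-0.05 ± 0.04). With both libraries of Set 3 left out, PSMG2 passed as well (0.15, adjusted p = 0.0424, edgeR).

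By level, the members spanned a 33.9-fold range in siControl, from PSMG4 at 13.1 ± 1.24 TPM to PSMA4 at 444 ± 7.01 TPM (SD, n = 3). The 31 core and regulatory subunits, which are built into the particle in fixed proportions, spanned 5.25-fold. In the order by siControl TPM, 31 of the 43 pairs of neighbours had overlapping values, so much of the order lies within the spread of the libraries. PSMA4 and PSMB4 (420 ± 28.1 TPM) overlapped at the top, and PSMB10, at 29.4 ± 1.87 TPM, was separate from its neighbours PSME4 (38.2 ± 0.55 TPM) and PSMG4.

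The summed TPM of the 44 genes went from 7608 ± 49.99 to 6610 ± 200.2 (SD, n = 3), or 86.9% of siControl. The core reached 85.0% and the 19S particle 79.2% of their siControl sums, and assembly factors stood at 100.3%. Within the assembly factors, PSMG1 to PSMG4 stood at 107.5% and the base chaperones at 89.4%. The latter include PSMD5, which lay at 38.3, 41.1 and 74.4 TPM in siControl Sets 1 to 3. The interferon-linked genes went from 295 ± 9.98 to 461 ± 38.9 TPM, or 156%. TPM is a share of each library, so these values do not show whether the amount of RNA per cell changed. The median of all genes shifted by -0.07 on the log2(TPM + 1) scale, beside -0.24 for the 41 other members.

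Transcript length, which RSEM reports as the mean over a gene's transcripts weighted by abundance, changed by under 5% for 41 members. The length ranges of 7 members did not overlap between the groups, PSMG4 and PSME3 among them. Separate ranges also occurred below 5%, as for PSMD8 at 3.44%. PSMG4 went from 1220 ± 107 to 1001 ± 31.9 bases (SD, n = 3), a change of -17.9%, and its ranges did not overlap. PSME3 changed by -6.36%. PSMD5 changed by 14.9%, which came from 1 library. Its length was 3152, 3152 and 1782 bases in siControl Sets 1 to 3 and 3140, 3069 and 3083 bases in siNONO. The CPM of PSMD5 in siControl Set 3 was 83.3, between the 79.3 and 87.7 of the other Sets, so its wide TPM spread followed the length and not the count.

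Reads shared with near-identical copies touched few members. The processed pseudogene PSMC1P1 held 12.6% of the counts given to PSMC1, and PSME2P1 and PSME2P2 held 1.82% and 1.20% of those given to PSME2. The split between such copies is an estimate by RSEM, so PSMC1 is the least certain in this respect. Annotated genes also overlap many members. In PSMB10, 1 further gene lies on the same strand over 1512 bases and had mean TPM values of 3.45 in siControl and 4.98 in siNONO. Same-strand genes over PSMA2 and PSMA6 stood at 11.7 and 12.1 TPM in siControl and at 9.98 and 11.5 TPM in siNONO. On the opposite strand, SLC22A23 overlaps PSMG4 by 34412 bases, at 10.0 and 9.38 TPM. How far reads of these genes enter the members was not tested.

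Other genes of the pathway were taken from a fixed list of 36, of which 33 were tested. Of these 18 (54.5%) fell, 7 (21.2%) rose and 8 did not pass, beside 23.4% and 23.2% of all genes tested. The share that rose was thus near that of all genes. The list mixes unlike groups: without its ubiquitin genes and interferon regulators, 15 fell and 1 rose of the 23 tested. NFE2L1, the transcription factor that induces proteasome subunits when proteasome activity is low, fell from 365, 382 and 394 CPM to 289, 285 and 301 CPM. Its log2 fold change was -0.38 ± 0.03 (SE; adjusted p = 4.67e-07, edgeR), and its groups did not overlap. DDI2, the protease that releases NFE2L1, was at -0.01 ± 0.04 and NGLY1, which removes its sugar chains, at -0.06 ± 0.05, and neither passed. VCP, the segregase that delivers substrates to the proteasome, fell by 0.38, and POMP, a chaperone of the core, by 0.16. With any 1 library of Set 1 or Set 2 left out, and its Set with it, POMP stood at -0.13 to -0.12 and did not pass (adjusted p = 0.0715 to 0.0996, edgeR).

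The lowest called gene of this list was UBE3C, a ubiquitin ligase bound to the proteasome, at 192, 200 and 196 CPM in siControl and 142, 141 and 142 CPM in siNONO. Its log2 fold change was -0.47 ± 0.03 (SE). The reversibly bound deubiquitinases USP14 and UCHL5 fell by 0.24 and 0.17. The ubiquitin receptor ADRM1 fell by 0.13, and the small lid subunit SEM1 did not pass (-0.04 ± 0.05). Of the ubiquitin genes, UBB fell by 0.15 and RPS27A did not pass (0.14 ± 0.06), and UBA1, the enzyme that activates ubiquitin, fell by 0.26.

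Among the interferon regulators of the list, IRF9 rose by 2.05, NLRC5, the transactivator of antigen presentation genes, by 1.42, STAT2 by 0.92 and IRF1 by 0.31. STAT2, IRF1 and IRF9 are known regulators of interferon-induced genes, and whether they acted on PSMB10, PSME1 or PSME2 here was not tested. By limma on log2(TPM + 1), IRF1 was at 0.15 and did not pass, and NLRC5 was at 0.91.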

How the data were processed

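Per the labels and the study's methods, the authors made stranded polyA libraries and aligned trimmed reads with STAR to GRCh37, and RSEM (version 1.3.1) estimated abundances. The deposited estimated counts per gene are not normalized, the deposited TPM values are scaled by the authors' RSEM run for transcript length and library size, and the deposited length column holds the abundance-weighted transcript length. Counting strand is not given in the sources used here.

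Of 62492 gene IDs, 99.5% matched a symbol. Counts were rounded and tested with edgeR (version 4.0.16, quasi-likelihood in the form of edgeR 3), TMM scaling and filterByExpr, blocked by Set. The F statistic gave the SE of each log2 fold change. CPM values are TMM scaled. The Set numbers come from the labels and were taken to pair the libraries. Same-Set deviations correlated at 0.537, 0.280 and 0.577 over 9075 genes. Between Sets 1 and 2 the values were 0.225 and 0.179, and between Set 3 and the others -0.527 to -0.286. These values set Set 3 apart more clearly than Sets 1 and 2 from each other. Replicates of a group differed beyond sampling noise, with a chi-square per degree of freedom of 2.82 or more, so each was counted. The biological coefficient of variation was 3.51%. On simulated counts for siNONO against siControl over 16684 genes, 85% of changes of 0.5 and 99% of changes of 1 (log2) were recovered, with 8 false calls. The simulation gave all genes the same dispersion and held no Set effect, so these values do not give the error rate of the real fit.

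Genes given by library were NONO, PSMB10, PSME1, PSME2, PSMB7, PSME3 and the highest and lowest called member of each role, with PSMB5, PSMD2 and PSMD5 added after their values were seen. The rule named PSMB8, PSMB9, POMP, NFE2L1, the interferon regulators, the extremes of the pathway list and the neighbours, and further pathway genes were chosen after their values were seen. The values of 3 genes of the pathway list are not reported here. Members and lists were chosen with earlier results of these data known. Alternatives were DESeq2 (version 1.42.0), limma (version 3.58.1) on log2(TPM + 1) and log2(TPM + 0.1), other scalings and filters, a length offset, no block and each library left out. Estimated counts in the ratios and the omission of Set 3 were added after seeing the data.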

Additional observations from a re-analysis of the deposited data

How the results depend on the processing

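With each of the alternatives, 5 to 8 members rose and 19 to 29 fell. The median of the other 41 members stayed below 0 throughout, at -0.17 to -0.11 outside the TPM scale, -0.24 by limma on log2(TPM + 1) and -0.25 on log2(TPM + 0.1). PSME1 and PSME2 passed under every alternative. PSMB10 did not pass by limma on log2(TPM + 1) (0.37, adjusted p = 0.108) or on log2(TPM + 0.1) (0.38, adjusted p = 0.104). In edgeR it did not pass with both libraries of Set 3 left out (0.24, adjusted p = 0.0539). Nor did it pass with either library of Set 3 left out (0.23 to 0.24, adjusted p = 0.0501 to 0.0571, edgeR). Its fold change ran from 0.23 to 0.66 with any 1 library left out. With the Set as a block, leaving out a library also removes its partner from the contrast. Without the block, 6164 genes in place of 7924 passed, and 6 members rose and 22 fell, with PSMB7, PSMC3, PSMD14 and PSMF1 no longer called. DESeq2 with the block called 5206 genes, 2596 higher and 2610 lower, against 3939 and 3985 by edgeR. Limma called 5257 genes, 1643 of them higher, on log2(TPM + 1) and 5250, 1638 of them higher, on log2(TPM + 0.1), so the split moved toward lower genes on the TPM scale, whose median over all genes was -0.07 and -0.09.

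Values near 0 changed sign in places. With 1 library left out at a time, PSMA6 ran from -0.038 to 0.038, PSMB5 from -0.060 to 0.063, PSME3 from -0.0013 to 0.044, PSMD5 from -0.081 to 0.036, EMC9 from -0.039 to 0.16 and CTRL from -0.052 to 0.36. With both libraries of Set 3 left out, PSMB5 was at -0.057, PSMD5 at 0.036 and EMC9 at -0.036. With no filter PSMA6 was at 0.011, by library size alone PSMB5 was at -0.0089 and PSME3 at -0.0027, and with the length offset PSMB5 was at -0.025. By limma on log2(TPM + 1) and log2(TPM + 0.1), PSMB5 was at -0.076 and -0.077, PSMG1 at -0.0235 and -0.0237, DCAF11 at -0.00052 and -0.00055, EMC9 at -0.0079 and -0.0083, CTRL at -0.036 and -0.027, and SLC12A4 at -0.0212 and -0.0221. The cause was not tested. The ratios of inducible to constitutive genes kept their direction under every alternative, and with the replicate block the sign-flip test gave an exact p of 0.25 for PSMB10, PSMB9, PSME1 and PSME2, the smallest it allows, and of 0.5 for PSMB8.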
